A study of Mus musculus with 24 samples.

Results

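Type I interferon-stimulated genes were followed in infarcted mouse heart over the first week of reperfusion, with and without insulin-like growth factor 1 (IGF1). The genes were a list of 39 named symbols. Each was represented by its brightest probe, matched to the symbol through the accession printed on the array. Of the 39, 37 were measured, among 15875 genes tested in all. No probe could be assigned to Mx1 or Mx2, which are therefore not analysed here.

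Type I interferons are secreted when a cell detects viral or misplaced nucleic acid, and they bind a receptor made of Ifnar1 and Ifnar2. The receptor's kinases activate STAT proteins, Stat2 among them, which join Irf9 in a complex called ISGF3. ISGF3 binds a short element in promoters, the interferon-stimulated response element (ISRE), and switches on a common set of antiviral genes. In infarcted heart, nucleic acid from dying cells taken up by macrophages is a known trigger of this response.

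Anterior wall at risk was taken from male C57BL6/J mice, whose left anterior descending artery had been closed for 45 min and then reopened for 24, 48 or 168 h. Vehicle mice received phosphate-buffered saline with albumin. IGF1 mice received recombinant IGF1 under the skin, 40 ng/g when blood flow returned followed by an osmotic pump that delivered 1 µg/g daily over the first 3 days, so that by 168 h the infusion period was over. The sample labels give 45 min of ischemia for the vehicle hearts too, whereas the series text calls the controls sham-operated; the sample labels were followed. There were no uninjured hearts, so the earliest level is that at 24 h. Each of the 6 groups had 4 one-colour arrays, which the labels call separate replicates without naming animals, so the p-values reflect only sample-to-sample spread, which may be technical.

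Signals are given as log2 of the background-corrected intensity minus the 75th percentile of the array, so that 0 is the 75th percentile and 1 unit is a doubling. Between 52.8% and 62.9% of an array's spots were well above background, and arrays of a group correlated across genes with r of 0.983 to 0.993. The probes of 35 of the 37 genes were well above background on all 24 arrays. The exceptions were Ddx60, above it on 23 arrays, and Oas3, above it on 19. The cardiac identity of the tissue was evident in the cardiomyocyte markers (Myh6, Tnnt2, Tnni3, Actc1, Ryr2 and Mb), all 6 of which were measured. Their linear signals, in multiples of the 75th percentile, summed to between 1302 and 1938 on each of the 24 arrays. In bulk tissue, fewer cells of a type and less RNA per cell cannot be told apart.

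One array stood apart for these genes, the IGF1 48 h replicate 4. All 37 genes were higher on it than on the other 3 arrays of its group, whereas over all genes it was the highest of the 4 for 23.2%. The gene-wise gap to the mean of the other 3 arrays had a median of 0.83 over the 37 genes and -0.03 over all genes. Results that use the IGF1 48 h group are therefore given with and without that array.

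The letters of the ISRE were found in a minority of the promoters searched. RefSeq promoter windows (GRCm38.p6, 250 bases before to 50 bases after a gene's start) were found for 29 of the 39 genes and searched on both strands for the ISRE letters, GAAA, then 2 bases of any kind, then GAAA. The letters occurred in 12 of the 29 (41.4%), compared with 3.46% of all 27025 genes in the promoter table and 3.25% of the 12551 tested genes that had a window. The element of the STAT dimers that interferon gamma activates, TTCNNNGAA, occurred in 4 of the 29 (13.8%) and in 8.13% of all genes in the table. A match describes the letters and does not show binding. Short stretches around the matches are given for 8 genes, those with an upstream match and the smallest p-values in the IGF1 comparisons, because they include the genes that the results turn on. They are read 5′ to 3′ along the gene's strand, with the matches in capitals; where the capitals run on, matches overlap.
Cxcl10: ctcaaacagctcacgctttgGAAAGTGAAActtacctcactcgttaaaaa
Trim30a: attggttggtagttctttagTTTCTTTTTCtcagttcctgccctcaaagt
Slfn5: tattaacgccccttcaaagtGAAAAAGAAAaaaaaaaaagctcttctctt
Oas1a: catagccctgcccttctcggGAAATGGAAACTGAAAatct
Bst2: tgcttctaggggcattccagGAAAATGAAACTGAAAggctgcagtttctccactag
Stat2: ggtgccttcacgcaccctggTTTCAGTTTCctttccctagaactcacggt
Isg15: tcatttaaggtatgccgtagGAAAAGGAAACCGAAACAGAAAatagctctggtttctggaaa
Rsad2: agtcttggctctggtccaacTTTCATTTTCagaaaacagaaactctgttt

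The stretches lie at chr5:92349073-92349122 for Cxcl10, chr7:104465200-104465249 for Trim30a, chr11:82951927-82951976 for Slfn5 and chr5:120907526-120907565 for Oas1a. Those of Bst2, Stat2, Isg15 and Rsad2 lie at chr8:71537567-71537622, chr10:128270256-128270305, chr4:156200855-156200916 and chr12:26456543-26456592. Slfn5 and Stat2 are on the plus strand of the chromosome and the other 6 on the minus strand. Isg15 held 3 overlapping matches, Oas1a and Bst2 held 2 each, and the other 5 genes held 1. The first match began between 20 bases (Oas1a) and 222 bases (Stat2) before the start. Trim30a, Stat2 and Rsad2 carry the element in the opposite orientation.

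The change with time was the main feature of the 37 genes. In vehicle hearts 34 of them rose between 24 and 168 h and 0 fell, where 28.1% of all genes tested rose and 32.1% fell. The median change was 1.05 log2 units, against -0.03 over all genes, and the 24 h and 168 h arrays did not overlap for 31 of the genes, as for 23.6% of all genes in that direction. The 3 genes that did not pass were Oas3, Oasl1 and Ifi35. Over the 3 times together, the F-test passed for 32 of the 37 genes, with a background of 66.1%. Within slides the median change was 1.05 on slide 1 and 1.24 on slide 4, the 2 slides that held vehicle arrays of both times, and all 37 genes were higher at 168 h on each.

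**Figure D1:**
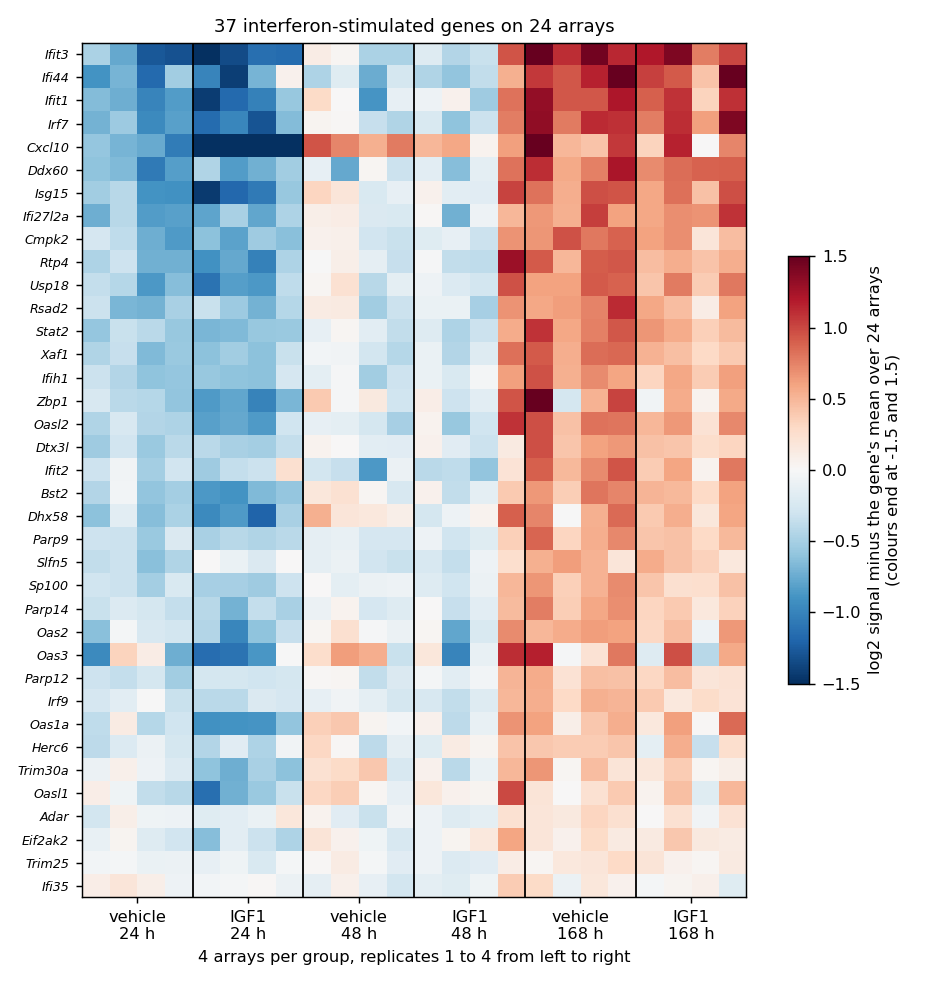
Log2 signal of the 37 interferon-stimulated genes (rows, ordered by their change from 24 to 168 h in vehicle hearts) on 24 arrays (columns, 4 per group), each gene centred on its mean; red is above and blue below that mean, and colours end at -1.5 and 1.5. The 24 h columns are mostly blue and the 168 h columns mostly red, and the IGF1 48 h replicate 4, the last column of its group, is red for all 37 genes.

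The ISGF3 genes on the list, Stat2 and Irf9, and the related factor Irf7 all rose from 24 to 168 h in vehicle hearts. Stat2, the ISGF3 subunit peculiar to interferon signalling, measured 1.21, 1.46, 1.39 and 1.22 at 24 h, then 1.67, 1.82, 1.63 and 1.42 at 48 h, and 2.88, 2.37, 2.54 and 2.72 at 168 h. The 168 h arrays all lay above the others, while 24 and 48 h overlapped. The change from 24 to 168 h was 2.48-fold (log2 1.31 ± 0.16 SE, adjusted p = 4.82e-07). Irf7, the factor that amplifies interferon production, measured 3.23, 3.39, 2.98 and 3.12 at 24 h, 3.98, 3.96, 3.59 and 3.49 at 48 h, and 5.26, 4.72, 5.05 and 5.03 at 168 h. Its 3 sets of arrays did not overlap, and it rose 3.56-fold from 24 to 168 h (log2 1.83 ± 0.23, adjusted p = 8.4e-07). Irf9, the DNA-binding subunit of ISGF3, rose by 0.66 log2 units.

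All 4 sensors of foreign nucleic acid rose from 24 to 168 h. Ifih1 (MDA5), a receptor for long double-stranded RNA, measured -0.37, -0.49, -0.65 and -0.63 at 24 h, -0.20, -0.07, -0.57 and -0.36 at 48 h, and 0.91, 0.48, 0.66 and 0.53 at 168 h. Levels at 48 h overlapped those at 24 h, and those at 168 h were above both, with a 2.27-fold rise over the week (log2 1.18 ± 0.15, adjusted p = 1.15e-06). Ddx60, a helicase linked to RNA sensing, measured -3.66, -3.73, -4.12 and -3.88 at 24 h and -1.95, -2.50, -2.30 and -1.84 at 168 h. These 2 sets of arrays did not overlap (3.25-fold, log2 1.70 ± 0.22, adjusted p = 1.5e-06). Dhx58 and Zbp1 rose by 1.00 and 1.18 log2 units.

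The 2-5A synthetases, which make the messenger that activates RNase L, changed less evenly. Oasl2, Oas2 and Oas1a rose by 1.15, 0.86 and 0.66 log2 units from 24 to 168 h, whereas Oas3 (0.85 ± 0.42, adjusted p = 0.0853) and Oasl1 (0.40 ± 0.21, adjusted p = 0.107) did not pass. Oas1a measured 2.73, 3.23, 2.68 and 2.81 at 24 h and 3.71, 3.2, 3.52 and 3.65 at 168 h. One array of each time overlapped.

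The IFIT genes had some of the largest changes. Ifit3 measured 0.89, 0.60, 0.10 and 0.06 at 24 h, 1.48, 1.40, 0.89 and 0.89 at 48 h, and 3.08, 2.48, 2.82 and 2.50 at 168 h. The last set was clear of the others, and the rise over the week was 4.94-fold (log2 2.31 ± 0.25, adjusted p = 1.49e-07), the largest of the 37 genes. Ifit1 rose 3.73-fold. Ifit2 was different in its timing, with -1.18, -0.92, -1.38 and -1.16 at 24 h, -1.15, -1.21, -1.73 and -0.96 at 48 h, and 0.03, -0.38, -0.16 and 0.07 at 168 h. It showed no rise over the first interval (log2 -0.10 ± 0.20, adjusted p = 0.751) and a 2.23-fold rise over the second (log2 1.15 ± 0.20, adjusted p = 5.73e-05).

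In the ISG15 pathway, which attaches a ubiquitin-like protein to others, Isg15 itself rose 2.83-fold and Usp18, the protease that removes ISG15 and damps the receptor, rose 2.50-fold from 24 to 168 h. Herc6, the mouse ligase for ISG15, measured -2.96, -2.78, -2.67 and -2.84 at 24 h and -2.17, -2.20, -2.20 and -2.16 at 168 h, sets that did not overlap (1.55-fold, adjusted p = 0.00301). Trim25, which activates the RNA sensor RIG-I, rose by 0.23 log2 units on the probe used. Its other probe fell by 0.85 log2 units (adjusted p = 1.01e-05), so the direction for Trim25 depends on the probe.

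All 5 measured antiviral effectors rose in vehicle hearts between 24 and 168 h on the probes used. Cmpk2, a mitochondrial nucleotide kinase that sits beside Rsad2 in the genome, measured -0.13, -0.25, -0.60 and -0.72 at 24 h and 0.79, 1.09, 0.92 and 1.01 at 168 h, without overlap (2.60-fold, log2 1.38 ± 0.18, adjusted p = 1.19e-06). Rsad2 (viperin), which makes a chain-terminating nucleotide, rose by 1.32 log2 units. Bst2 (tetherin), which holds budding virus at the cell surface, measured 2.96, 3.37, 2.81 and 2.90 at 24 h, 3.57, 3.63, 3.43 and 3.16 at 48 h, and 4.05, 3.77, 4.20 and 4.13 at 168 h. Each step passed, and the full rise was 2.04-fold (adjusted p = 5.52e-06). Eif2ak2 (PKR), which blocks translation, and Adar, which edits double-stranded RNA, both rose by 0.31 log2 units. The other probe of Adar did not pass (0.15, adjusted p = 0.505), so the call for Adar depends on the probe.

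Dtx3l and Parp9, partners in an ubiquitin ligase that promotes interferon signalling, both rose from 24 to 168 h in vehicle hearts. Dtx3l measured 0.01, 0.27, -0.000578 and 0.14 at 24 h, 0.60, 0.56, 0.40 and 0.38 at 48 h, and 1.52, 0.97, 1.15 and 1.21 at 168 h. The 3 sets did not overlap, and the gene had the smallest p-value of the 37 for the change over the week (2.15-fold, log2 1.10 ± 0.11, adjusted p = 2.82e-08). Parp9 measured 0.68, 0.67, 0.44 and 0.78 at 24 h and 1.87, 1.32, 1.54 and 1.71 at 168 h. It rose 1.96-fold, and Parp12 and Parp14 rose by 0.78 and 0.89 log2 units.

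Most of the rise in vehicle hearts came after 48 h, over the longer interval, so the counts below do not compare rates. The median change was 0.33 log2 units from 24 to 48 h and 0.72 from 48 to 168 h. Between 24 and 48 h, 7 of the 37 genes rose (background 11.2% of all genes rising and 11.5% falling), namely Cxcl10, Dhx58, Isg15, Dtx3l, Ifi27l2a, Ifit3 and Bst2. Between 48 and 168 h, 27 rose (background 25.0% rising and 28.1% falling), and 0 fell at either step. That early count rests on single arrays: it was 1 without the 24 h replicate 3 or the 48 h replicate 1, 3 without the 48 h replicate 2 and 4 without the 24 h replicate 4. Among the 31 genes whose mean rose by more than 0.5 log2 units over the week, a median of 31.2% of that change was reached by 48 h. Cxcl10 and Dhx58 passed the early and not the late step, 22 genes passed the late and not the early step, and 5 passed both.

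Cxcl10, the chemokine that draws T cells and NK cells through Cxcr3, was the clearest early gene. In vehicle hearts it measured 0.47, 0.36, 0.29 and -0.002 at 24 h and already 2.00, 1.78, 1.58 and 1.83 at 48 h, with 3.2, 1.55, 1.48 and 2.11 at 168 h. The 48 h arrays were all above the 24 h arrays, and the 168 h arrays straddled them. It rose 2.86-fold in the first interval (log2 1.52 ± 0.29, adjusted p = 0.00111) and did not pass in the second (log2 0.29 ± 0.29, adjusted p = 0.434).

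**Figure D2:**
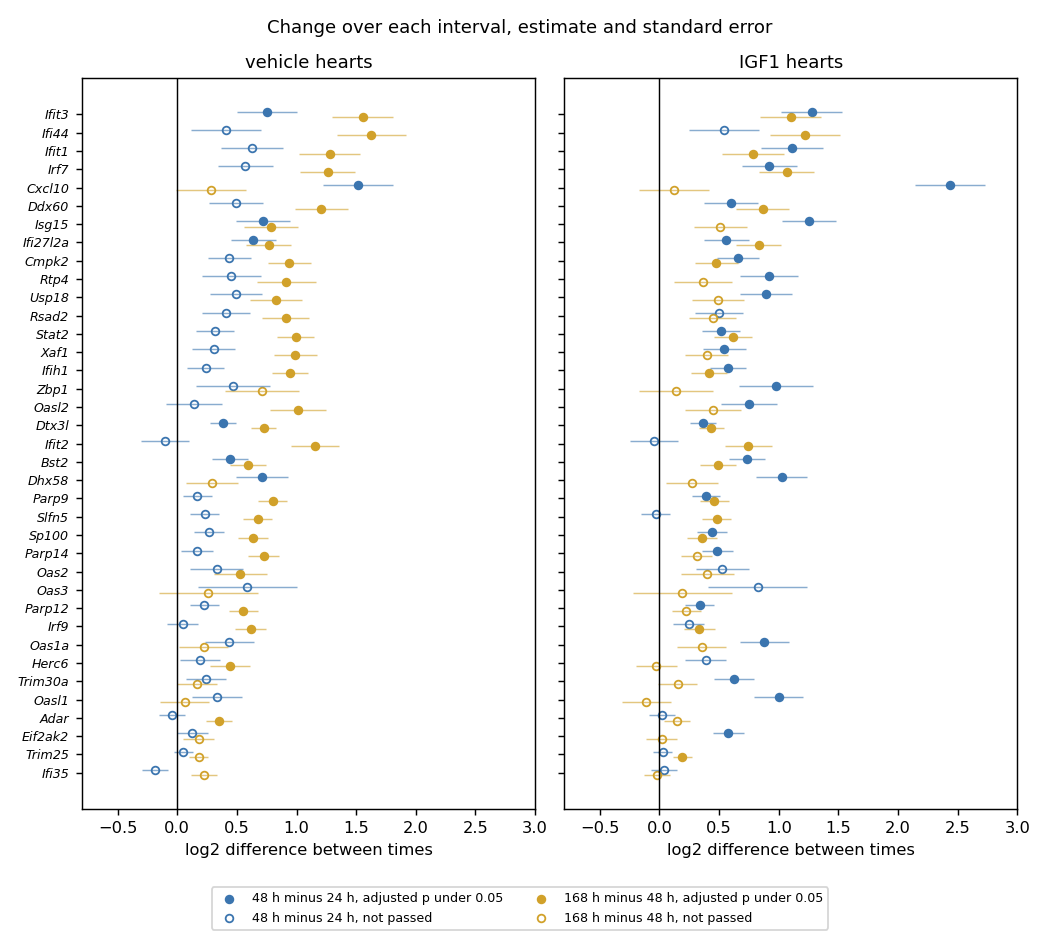
Log2 difference over each interval (blue, 48 h minus 24 h; yellow, 168 h minus 48 h) for the 37 genes in vehicle and IGF1 hearts, with standard errors of the fit; filled points passed an adjusted p of 0.05. In vehicle hearts 7 genes passed the early and 27 the late interval, and Cxcl10 has its change in the early interval in both panels.

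In IGF1 hearts the same direction was seen over the week: 34 of the 37 genes rose from 24 to 168 h and 0 fell (background 24.6% rising and 33.9% falling), with a median change of 0.99. Arrays of the 2 times did not overlap for 32 genes, as for 21.9% of all genes in that direction. Adar, Herc6 and Ifi35 did not pass on the probes used, whereas the other probe of Adar did (0.53, adjusted p = 0.0152). Ifit3 measured -0.13, 0.02, 0.23 and 0.21 at 24 h and 2.58, 2.77, 2.14 and 2.37 at 168 h, a 5.2-fold rise without overlap (log2 2.38 ± 0.25, adjusted p = 1.11e-07). Irf7 measured 2.78, 2.96, 2.64 and 3.29 at 24 h and 4.70, 5.04, 4.55 and 5.33 at 168 h, again without overlap, a 3.97-fold rise (adjusted p = 3.19e-07). Stat2 measured 1.10, 1.13, 1.22 and 1.23 at 24 h and 2.45, 2.35, 2.15 and 2.27 at 168 h. Its sets were also separate, and the rise was 2.20-fold.

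Where in the week the IGF1 rise fell depended on replicate 4 at 48 h. With all arrays, 26 genes rose between 24 and 48 h (background 16.3% rising and 21.3% falling) and 17 between 48 and 168 h (22.6% and 26.2%). Without that array the counts were 18 and 28. The count for the later interval was 11 without the 48 h replicate 2 or 3. With the slide as a block it was 10, and no slide held IGF1 arrays of both 48 and 168 h. Between 24 and 48 h the within-slide median was 0.51 on slide 2 and 0.80 on slide 3, which held replicate 4. With all arrays, the difference between IGF1 and vehicle hearts in their change from 24 to 48 h passed for 0 of the 37 genes (background 0.0693%). Here 3 of the 37 and 2756 of all 15875 genes reached an unadjusted p under 0.05. This difference was not tested without replicate 4.

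**Figure D3:**
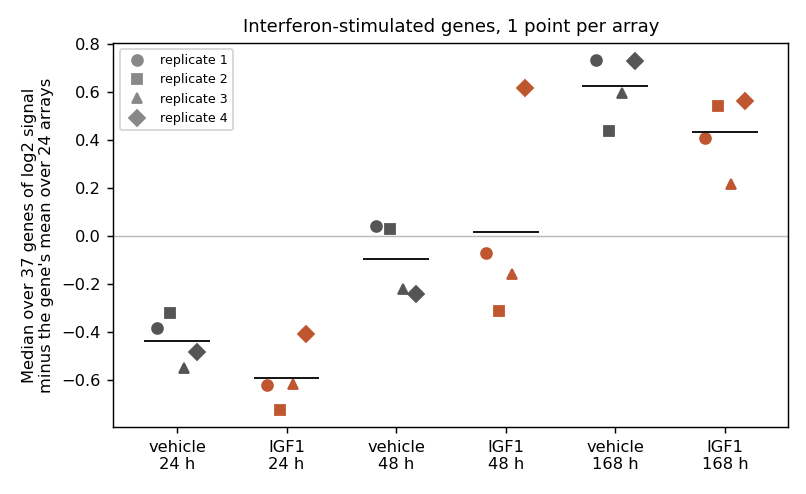
Median over the 37 genes of the log2 signal, each gene centred on its mean over 24 arrays, with 1 point per array and a line at the mean of each group. Vehicle arrays run from -0.55 to -0.32 at 24 h and from 0.44 to 0.73 at 168 h, and the IGF1 48 h replicate 4 is at 0.62 while the other 3 arrays of its group lie between -0.31 and -0.07.

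The IGF1 48 h replicate 4 raised the genes by unequal amounts. Rtp4, a chaperone-like protein of the secretory route, was 4.03 on it and 2.37 to 2.73 on the other 3 arrays. Ifit3 was 2.32 there against 0.93 to 1.17, Irf7 was 4.70 against 3.33 to 3.70, and Isg15 was 4.68 against 3.49 to 3.72. For Ifit3 and Irf7 these values lay within the range of the IGF1 168 h arrays. For Rtp4 and Isg15 they lay above that range (3.17 to 3.30 and 4.09 to 4.62). The Cxcl10 level was less distinct, 1.67 on that array and 1.10 to 1.63 on the others, and Dtx3l was 0.68 against 0.23 to 0.62.

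Other interferon-induced genes marked the same array. It was the highest of its group for 31 of 35 further type I interferon-induced genes and for 12 of 14 interferon gamma-induced genes. Of 15 sensing and induction genes it was the highest for 4 and the lowest for 7. Of 8 receptor, kinase and STAT genes it was the highest for 3 and the lowest for 4. Over all genes it was the highest for 23.2% and the lowest for 35%. Ciita, the regulator of class II antigen presentation, was lower on it than on the other 3 arrays (-0.55 against 0.19 to 0.41). Its marker sums were 313.6 for neutrophils, where the other 3 arrays had 219.1 to 308.5 and the IGF1 168 h arrays at most 118.2, and 393.4 for fibroblasts, where the others had 499.7 to 552.7. Its macrophage sum was 93.0 (others 104.5 to 122.5), its T cell sum 2.11 (2.15 to 2.42), its NK cell sum 0.543 (0.584 to 0.743) and its dendritic cell sum 0.338 (0.377 to 0.601). Each of these 4 sums was the lowest of the group, as was the fibroblast sum. The monocyte sum was the highest of the group (190.3, others 135.6 to 176.1), as was the neutrophil sum. The part of these cell types in the values of this array was not tested.

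Against this time course, the comparison of IGF1 with vehicle asks whether treatment changed the level of the genes at a given time. At 24 h, 3 of the 37 genes passed, a share of 8.11% where 16.0% of all genes passed. Cxcl10 and Trim30a were lower with IGF1 (background 7.26%) and Slfn5 was higher (background 8.76%). In all, 28 of the 37 differences were negative, with a median of -0.15 (0.01 over all genes). An unadjusted p under 0.05 was reached by 6 of the 37 and by 4798 of all 15875 genes.

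Cxcl10 at 24 h measured 0.47, 0.36, 0.29 and -0.002 in vehicle mice and -1.12, -1.36, -0.69 and -0.60 in IGF1 hearts. All 4 IGF1 arrays lay below all 4 vehicle arrays. Each slide held 1 array of each group, which fixed the order within slides. The gap there was 0.60 to 1.72. Expression was 2.34-fold lower with IGF1 (log2 -1.23 ± 0.29, adjusted p = 0.00915). This call was made under all 17 settings tried, with adjusted p-values from 0.00865 to 0.033.

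Trim30a, a protein reported to restrain Toll-like receptor signalling, measured 0.94, 1.10, 0.94 and 0.81 in vehicle and 0.41, 0.29, 0.53 and 0.40 in IGF1 hearts at 24 h. The 2 groups did not overlap, and IGF1 was lower (1.45-fold, log2 -0.54 ± 0.17, adjusted p = 0.0314). Slfn5, a member of the Schlafen family, went the other way, with 2.16, 2.20, 1.90 and 2.08 in vehicle and 2.53, 2.43, 2.31 and 2.54 in IGF1 hearts. Again the groups did not overlap (1.29-fold higher, log2 0.37 ± 0.12, adjusted p = 0.0441). Its other 2 probes gave 0.17 and 0.32, neither past the threshold. Without the vehicle replicate 1, 2 or 3 or the IGF1 replicate 1, 2 or 4, the count of 3 became 1, which was Cxcl10, and without the vehicle replicate 4 it became 2.

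Groups did not overlap for 5 genes that were lower and 1 that was higher with IGF1 (background 8.31% and 10.1%). Of the genes that did not pass at 24 h, Oas1a came nearest in the 2-5A family and Bst2 among the effectors. Oas1a measured 2.73, 3.23, 2.68 and 2.81 in vehicle and 2.20, 2.21, 2.22 and 2.52 in IGF1 hearts, groups that did not overlap (log2 -0.57 ± 0.20, adjusted p = 0.0605). Bst2 measured 2.96, 3.37, 2.81 and 2.90 in vehicle and 2.54, 2.51, 2.74 and 2.83 in IGF1 hearts. Its groups overlapped at 1 array (log2 -0.36 ± 0.15, adjusted p = 0.114). All 5 2-5A synthetases had negative differences, between -0.57 and -0.29. Among the IFIT and ISGF3 genes, Ifit3 was at -0.33 ± 0.25, Irf7 at -0.26 ± 0.23 and Stat2 at -0.15 ± 0.16. Over the 37 genes, the within-slide median difference was -0.20, -0.37 and -0.08 on slides 1, 2 and 3 but 0.16 on slide 4.

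**Figure D4:**
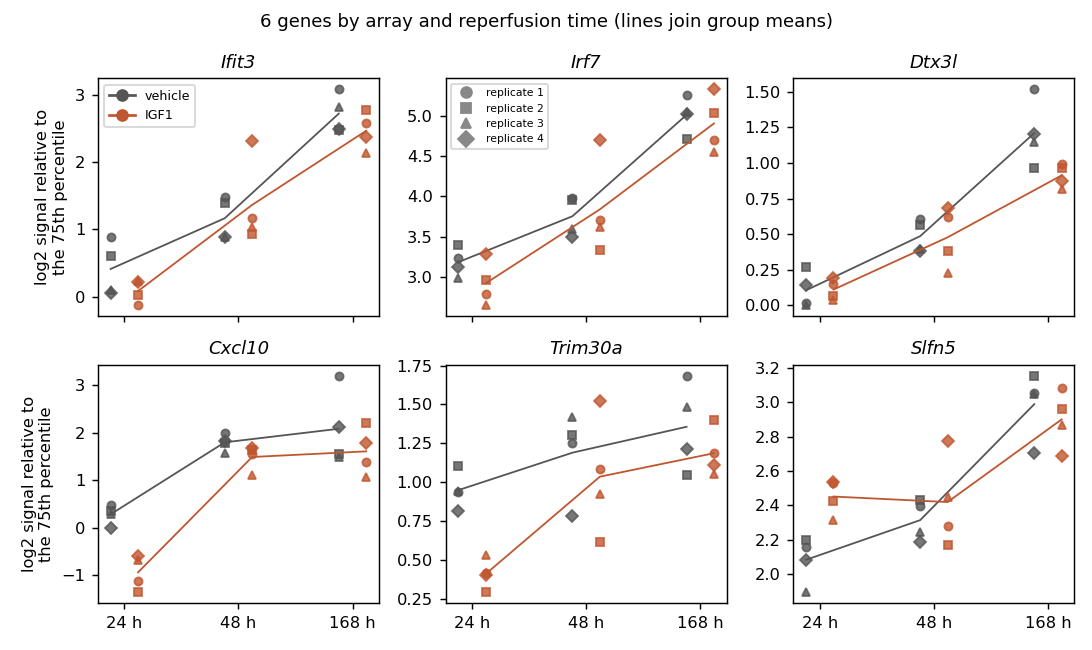
Log2 signal above each array's 75th percentile for 6 genes, with 1 point per array, vehicle in grey and IGF1 in orange, and lines through group means. At 24 h the orange and grey points are separate for Cxcl10, Trim30a and Slfn5, and for Ifit3 and Irf7 the IGF1 48 h replicate 4 lies far above the other arrays of its group.

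Marker genes of immune cells were compared between the 24 h hearts as well. The summed macrophage markers (6 of 6 measured) lay between 87.5 and 94.0 times the 75th percentile in vehicle and between 50.4 and 69.8 in IGF1 hearts, and 4 of the 6 were lower with IGF1. Dendritic cell markers (4 of 5 measured) summed to 0.749 to 0.933 against 0.350 to 0.549, with 3 lower and with Clec9a not well above background on any IGF1 24 h array. B cell markers (3 of 4 measured) summed to 1.38 to 2.30 against 0.535 to 0.858, and all 3 were lower. T cell sums were 2.66 to 3.38 against 2.48 to 2.68, and 3 of the 5 measured markers were lower. The median difference of these 5 markers was -0.93 log2 units. NK cell sums were 0.950 to 1.10 against 0.516 to 0.548, with 1 of 4 lower and Klrb1c not well above background on any IGF1 24 h array. Monocyte sums were 117.7 to 197.4 against 164.1 to 270.0, overlapping and with 1 of 6 markers higher and 1 lower, and neutrophil sums were 317.6 to 488.7 against 357.5 to 462.8, with 0 of 6 past the threshold. Cardiomyocyte sums were 1374 to 1820 against 1710 to 1938, with 3 of 6 markers higher. Their part in the lower Cxcl10 and Trim30a was not tested.

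At 48 h, 0 of the 37 genes passed in limma (background 0.0126%). At an unadjusted p under 0.05 there were also 0, where 1408 of all 15875 genes reached it. With all arrays 27 of the 37 differences were positive, with a median of 0.11. Without the IGF1 replicate 4 the balance turned: 33 were negative and the median was -0.09. The same dependence appeared by slide, with a median of -0.22 on slide 2 and of 0.41 on slide 3. The largest differences at 48 h were 0.33 for Oasl2 and -0.31 for Cxcl10. Cxcl10 measured 2.00, 1.78, 1.58 and 1.83 in vehicle and 1.55, 1.63, 1.10 and 1.67 in IGF1 hearts, so the groups overlapped (log2 -0.31 ± 0.29, adjusted p = 0.804).

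At 168 h, 0 of the 37 genes passed (background 0.0%), while 34 of 37 differences were negative, with a median of -0.22 against -0.01 over all genes. Dtx3l and Parp14 reached an unadjusted p under 0.05, as did 615 of all 15875 genes, and the smallest adjusted p was 1.00. Dtx3l had the smallest p-value, with 1.52, 0.97, 1.15 and 1.21 in vehicle and 1.00, 0.96, 0.82 and 0.87 in IGF1 hearts. These arrays overlapped, and the difference was -0.30 ± 0.11 (adjusted p = 1). Stat2 (-0.32 ± 0.16), Cmpk2 (-0.34 ± 0.18), Herc6 (-0.32 ± 0.17), Ifit2 (-0.31 ± 0.20), Xaf1 (-0.37 ± 0.18) and Cxcl10 (-0.48 ± 0.29) pointed the same way without passing. The within-slide medians were -0.24 on slide 1 and -0.16 on slide 4. The median was -0.12 without the IGF1 replicate 3 and -0.14 without the vehicle replicate 1. That IGF1 array was the lowest of its group for 75.7% of the 37 genes and 16.9% of all genes. The vehicle replicate 2 was the lowest of its group for 81.1% of the 37 genes and 21% of all genes. Without it the median was -0.28, with 37 negative differences. An unadjusted p under 0.05 was then reached by 8 of the 37 and by 495 of all 15875 genes. No gene passed after adjustment in any of these. Macrophage sums at this time were 97.3 to 130.6 in vehicle and 120.6 to 167.9 in IGF1 hearts, overlapping and with 0 of 6 markers past the threshold.

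**Figure D5:**
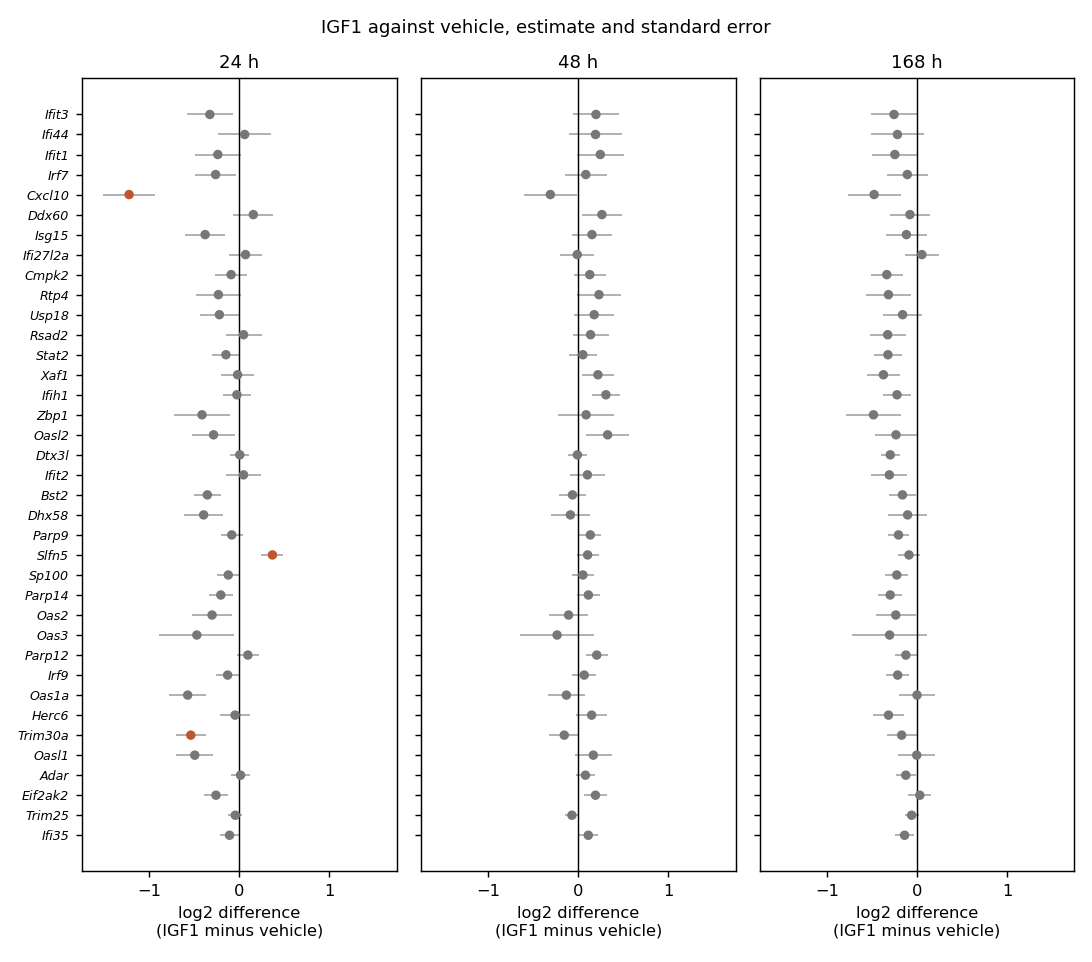
Log2 difference between IGF1 and vehicle hearts at 24, 48 and 168 h for the 37 genes, with standard errors of the fit; orange points passed an adjusted p of 0.05. Cxcl10, Trim30a and Slfn5 are the 3 orange points, all at 24 h, and 34 of the 37 points at 168 h lie left of 0.

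The IGF1 effect itself was not shown to differ between times for any of the genes. The F-test over the 3 times passed for 0 of 37 genes (smallest adjusted p = 0.213, background 5.6%). An unadjusted p under 0.05 was reached by 1 of the 37 and by 3619 of all 15875 genes. For Cxcl10, the differences of -1.23, -0.31 and -0.48 at 24, 48 and 168 h gave an adjusted p of 0.299. The 3 comparisons use separate arrays.

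Genes upstream of the response were followed for comparison. Ifnb1, the main early interferon of most cells, had 1 probe, which was not well above background on the 4 arrays needed to keep it. Of 19 interferon genes listed, 7 were measured. One passed over the week in vehicle hearts, Ifna1, which fell by 0.44 log2 units and was above background on 12 of 24 arrays. Ifnar1 changed by 0.05 ± 0.11 and Ifnar2 by -0.11 ± 0.08 from 24 to 168 h in vehicle hearts, and neither passed in any comparison.

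Of 15 further sensing and induction genes, 5 rose and 6 fell from 24 to 168 h in vehicle hearts, shares close to those over all genes (28.1% and 32.1%). Irf3, which starts interferon transcription, fell by 0.30 log2 units in vehicle and by 0.33 in IGF1 hearts from 24 to 168 h (adjusted p = 0.000946 and 0.00038). At 24 h 4 of the 15 sensing genes were lower with IGF1 and 0 were higher, where 7.26% of all genes were lower and 8.76% higher. These were Cgas, the sensor of cytosolic DNA (1.42-fold, adjusted p = 0.00134), Sting1, its adaptor (1.26-fold, adjusted p = 0.0193), and the macrophage-rich factors Irf5 (1.56-fold, adjusted p = 0.00556) and Irf8 (1.60-fold, adjusted p = 0.00564). Cgas measured 0.48, 0.53, 0.47 and 0.44 in vehicle and -0.25, -0.04, 0.17 and 0.03 in IGF1 hearts at 24 h, without overlap. The macrophage sums given above moved with these genes, and their part was not tested. Of 8 receptor, kinase and STAT genes, Jak1 alone was lower with IGF1 at 24 h (by 0.30 log2 units, adjusted p = 0.0452). Of 7 restraint genes, 0 passed there.

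Among 35 further type I interferon-induced genes, 20 rose and 4 fell from 24 to 168 h in vehicle hearts, and 22 rose and 3 fell in IGF1 hearts. Over all genes 28.1% rose and 32.1% fell in vehicle hearts, and 24.6% and 33.9% with IGF1. Ifit3b, a close copy of Ifit3 whose probe may share its transcripts, rose 4.64-fold in vehicle hearts, and Isg20, an antiviral exonuclease, 2.14-fold. At 24 h 1 of the 35 was higher and 1 lower with IGF1, below the shares over all genes (8.76% and 7.26%). Pml was higher with IGF1 (by 0.29 log2 units) and Slfn8 was 1.51-fold lower (adjusted p = 0.0344).

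Genes induced mainly by interferon gamma were followed as a separate list. All 14 measured rose from 24 to 168 h in vehicle hearts, with a median of 2.12, and 10 rose in IGF1 hearts, with a median of 1.03, where 28.1% and 24.6% of all genes rose. Gbp2, a guanylate-binding GTPase, measured 4.24, 2.27, 2.28 and 3.26 in vehicle and 2.10, 2.31, 1.92 and 2.02 in IGF1 hearts at 168 h. Vehicle replicates 1 and 4 stood above the rest. At 168 h all 14 differences between IGF1 and vehicle were negative, between -1.25 and -0.52, but 0 passed the test. For the 37 type I genes those differences lay between -0.48 and 0.05.

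Markers of other cells also changed with time. In vehicle hearts fibroblast sums were 159.4 to 241.5 at 24 h and 1066 to 1195 at 168 h, with 5 of 6 markers higher. Neutrophil sums went from 317.6 to 488.7 down to 80.0 to 129.1, with 4 of 6 markers lower. The median change of the 6 neutrophil markers was -6.16 log2 units. T cell sums were 2.66 to 3.38 and 2.95 to 3.91, with 1 of 5 markers higher. Macrophage sums were 87.5 to 94.0 and 97.3 to 130.6, with 3 of 6 markers higher and 3 lower. Monocyte sums were 117.7 to 197.4 and 76.6 to 88.7, with 0 of 6 higher and 3 lower. The part of these shifts in the rise of the 37 genes was not tested.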

How the data were processed

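Per the labels, total RNA was labelled with Cy3 and hybridised to Agilent mouse 1-colour arrays. The intensity used was the processed signal of the deposited scanner files, which the authors' Agilent Feature Extraction 12.0.3.2 had corrected for background, per the file headers, and which had not been scaled between arrays. Control spots and outlier spots (53 to 130 per array) were left out, spots of a probe were averaged, and log2 of the signal minus the array's 75th percentile (371.6 to 622.4) was taken. Probes had to be well above background on 4 or more of the 24 arrays, and each gene was represented by its brightest remaining probe. Symbols were taken from RefSeq accessions (33767 of 56605 probes had 1 symbol and 22838 none).

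A single linear model with 6 group means was fitted to the 24 arrays in limma 3.58.1 (R 4.3.3; 18 residual degrees of freedom, moderated by eBayes). Tests were two-sided, and p-values were adjusted by Benjamini-Hochberg over 15875 genes, with a threshold of 0.05. Errors of differences are standard errors of this fit. The number of arrays limits the precision. Marker sums are sums of linear signals over the 75th percentile, so the brightest markers weigh most in them. The share of the weekly change reached by 48 h was computed for genes whose mean rose by more than 0.5 log2 units.

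The authors' deposited value table holds log2 values of 33957 probes with column medians from -0.0557 to 0.0527. Each probe differed from the values used here by 1 offset, the residual SD having a median of 0.0012 and a maximum of 0.076, so scale and direction are the same; which arrays its centring used is not given in the sources used here. It served as an alternative, beside normexp, quantile normalization, no dim filter, the mean of a gene's probes, the slide or the replicate number as a block, the compared groups alone and leaving out each array.

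Same-numbered arrays were checked for pairing by the correlation of their deviations from the group means. It was over 0.1 for all 4 numbers at 168 h (0.186 to 0.502) and not at 24 h (-0.049 to 0.134) or 48 h (-0.005 to 0.112). Same-numbered arrays at 168 h also shared a slide, as they did at 24 h. At 168 h slide 1 held replicates 1 to 3 of both groups, and arrays with different numbers were not compared. The check therefore does not separate pairing from slide. The main fit paired no arrays at any time, and the replicate number was a block in an alternative only.

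Each slide had 1 scan time. The 168 h arrays lay on slides 1 and 4, the 48 h arrays on slides 2 to 4 and the 24 h arrays on all 4. The genes, lists and naming rule (genes past the threshold for IGF1, the 8 smallest p-values over time in vehicle hearts and the smallest of each role group over the IGF1 comparisons; from each pathway list up to 5 with the smallest p, and always Ifnb1, Ifnar1, Ifnar2, Irf3 and a gene not reported here) were chosen with earlier results of these data known. Not every pathway gene so selected is reported.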

Additional observations from a re-analysis of the deposited data

Results flagged for a closer look

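In 2 of 96 sets of 4 arrays examined, a single array lay so far from the other 3 that its gap exceeded Dixon's 95% critical value; chance alone gives about 1 in 20. Both were the IGF1 24 h replicate 4, which lay on slide 4. Ifih1 was -0.3115 on it, while the other 3 arrays lay between -0.67 and -0.62. Oas1a was 2.521 on it, while the others lay between 2.20 and 2.22. That array was also the highest of its group in the median of the 37 genes (-0.41, others -0.72 to -0.62). The 96 sets did not cover every one of the 37 genes in all 6 groups. The IGF1 48 h replicate 4 was not flagged in the sets examined, and sets outside them were not checked.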

How the results depend on the processing

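Counts of genes past the threshold kept within 1.5 times their value in the main setting, except as follows. For IGF1 against vehicle at 24 h, the 3 became 1 with no filter on dim probes. For 48 h against 24 h in IGF1 hearts, the 26 became 16 with only the compared groups in the fit. For 168 h against 48 h in IGF1 hearts, the 17 became 10 with the slide as a block. Leaving out 1 array gave 1 to 3 genes for IGF1 at 24 h, 0 at 48 and at 168 h and 0 for the effect differing between times; 1 to 7, 25 to 29 and 31 to 35 for 48 against 24 h, 168 against 48 h and 168 against 24 h without IGF1; and 18 to 28, 11 to 28 and 32 to 35 with IGF1.

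Trim30a at 24 h passed under 10 of 17 settings (adjusted p = 0.018 to 0.0943) and Slfn5 under 5 (0.0279 to 0.131). Averaging the probes of a gene reversed Trim25, to -0.31 for 168 against 24 h in vehicle hearts and to -0.37 and -0.19 for 168 against 48 h and 168 against 24 h in IGF1 hearts. With the replicate number as a block, 4, 0 and 0 genes passed for IGF1 at 24, 48 and 168 h, the added gene being Oas1a, 0 for the effect differing between times, 8, 27 and 33 over time with vehicle and 28, 19 and 33 with IGF1. The F-test by time has no alternative with only the compared groups. Signal near background limits Oas3 and Ddx60.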
